A study of Mus musculus with 19 samples.

Results

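Hereditary spastic paraplegia is a group of inherited human diseases in which the longest axons of the corticospinal tract degenerate and the legs become stiff and weak. The human counterparts of 9 mouse genes considered here are mutated in it, namely Spast, Atl1, Reep1, Spg7, Spg11, Nipa1, Bscl2, L1cam and Hspd1. Each gene was taken from the array by its symbol, through the probe set (the group of oligonucleotides that reads one transcript) with the highest mean over all arrays. Of these 9 genes, 8 could be followed, among 18194 genes in all that had a probe set carrying a single gene symbol. The probe sets that carry the symbol Spg11 (spatacsin, a protein of lysosome recycling) also carry a second symbol, so Spg11 is not analysed here.

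Expression was read on 19 Affymetrix arrays (Mouse Genome 430 2.0), each hybridised with RNA of sorted cortical projection neurons from C57BL/6 mice, for which the labels name no transgene or mutation. Corticotectal projection neurons (CTPN), whose axons run to the midbrain, were taken at postnatal day 14 (P14). Corticospinal motor neurons (CSMN), whose axons run to the spinal cord, and callosal projection neurons (CPN), whose axons cross to the other hemisphere, were each taken at embryonic day 18 (E18), postnatal days 3 and 6 (P3 and P6), and at P14. The 9 groups hold 2 arrays apiece, but for CSMN at P3, which hold 3, and the submitters describe replicates as independent collections. All cells had been marked by fluorescent microspheres carried back along the axon, then sorted by fluorescence. The protocol ties CSMN and CPN to sensorimotor cortex and CTPN to visual cortex, in wording that describes the injections and leaves unclear whether the cells lay there, so a difference of CTPN from the other types could include one of area. Values are log2 expression as deposited, and a difference of 1 between groups is a 2-fold change.

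The proteins of these genes act at a few places in the axon. Spastin cuts microtubules, while atlastin and REEP1 shape and fuse the tubules of the endoplasmic reticulum (ER), which runs the whole length of an axon. Seipin sits in the ER membrane where lipid droplets form. L1CAM is an adhesion molecule on growing axons and is needed for the corticospinal tract to form correctly. NIPA1 is a magnesium transporter of endosomes that restrains BMP receptors. Paraplegin, the product of Spg7, is a subunit of a protease of the inner mitochondrial membrane, and HSP60, the product of Hspd1, is the chaperonin that folds proteins in the mitochondrial matrix.

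Promoter windows are shown for 2 pairs of genes that passed the test in the same step, and for Hspd1, which shares its promoter with the gene of its partner. All come from RefSeq on the GRCm38.p6 build and span 250 bases before to 50 bases after a transcript start. RefSeq windows matched all 9 genes by symbol, with 2 windows for L1cam and Hspd1 and 3 for Bscl2. Spast (chr17:74338737-74339036, plus strand) and L1cam (chrX:73880741-73881040, minus strand) both fell between P3 and P14. Atl1 (chr12:69892855-69893154, plus strand) and Nipa1 (chr7:56019551-56019850, minus strand) both rose between E18 and P3, as did L1cam and Reep1, and the Reep1 window is not printed. The Hspd1 window (chr1:55087883-55088182, minus strand) shares 285 bases with the window of Hspe1 (chr1:55087898-55088197, plus strand), and neither gene passed the test between the types, from E18 to P3 or from P3 to P14. Capitals mark matches to the motifs searched.
Spast: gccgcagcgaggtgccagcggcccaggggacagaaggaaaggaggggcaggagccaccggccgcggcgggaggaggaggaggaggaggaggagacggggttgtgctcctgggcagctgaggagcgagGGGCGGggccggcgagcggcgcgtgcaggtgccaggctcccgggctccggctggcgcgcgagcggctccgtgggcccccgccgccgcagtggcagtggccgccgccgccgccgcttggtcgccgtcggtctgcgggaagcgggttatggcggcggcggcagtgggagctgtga
L1cam: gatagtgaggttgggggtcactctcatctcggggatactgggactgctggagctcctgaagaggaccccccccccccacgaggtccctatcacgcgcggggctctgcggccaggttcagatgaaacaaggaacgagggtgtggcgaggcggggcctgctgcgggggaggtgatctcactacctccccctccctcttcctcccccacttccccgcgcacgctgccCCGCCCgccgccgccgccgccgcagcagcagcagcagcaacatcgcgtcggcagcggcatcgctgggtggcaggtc
Atl1: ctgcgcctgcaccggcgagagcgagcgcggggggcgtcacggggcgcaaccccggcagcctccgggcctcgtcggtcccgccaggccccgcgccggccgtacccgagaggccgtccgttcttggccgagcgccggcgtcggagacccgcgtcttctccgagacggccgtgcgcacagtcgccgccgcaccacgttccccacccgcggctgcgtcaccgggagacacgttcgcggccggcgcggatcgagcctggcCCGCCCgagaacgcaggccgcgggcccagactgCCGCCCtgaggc
Nipa1: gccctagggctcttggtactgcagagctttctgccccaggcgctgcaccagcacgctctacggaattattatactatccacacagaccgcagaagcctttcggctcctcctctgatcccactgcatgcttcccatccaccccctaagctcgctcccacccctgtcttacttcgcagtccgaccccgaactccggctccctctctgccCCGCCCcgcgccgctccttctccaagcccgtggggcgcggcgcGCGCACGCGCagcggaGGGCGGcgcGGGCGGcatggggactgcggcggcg
Hspd1: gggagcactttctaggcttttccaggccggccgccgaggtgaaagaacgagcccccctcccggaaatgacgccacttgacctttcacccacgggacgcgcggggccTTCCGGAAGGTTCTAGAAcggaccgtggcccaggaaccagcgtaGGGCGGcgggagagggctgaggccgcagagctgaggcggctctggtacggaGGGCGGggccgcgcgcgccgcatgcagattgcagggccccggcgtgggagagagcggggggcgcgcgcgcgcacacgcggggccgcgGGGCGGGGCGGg
The search covered both strands for the TATA box (TATAAA, in 13.6% of 32851 mouse promoter windows of the same length), the CCAAT box (CCAAT, 37.4%) and the GC box (GGGCGG, 35.7%). It also covered the E-box (CACGTG, 7.15%), the NRF1 core (GCGCA, any base, then GCGC, 4.6%) and the heat shock element core (GAA, TTC and GAA, each 2 bases apart, 0.603%). The windows of Spast and L1cam held 1 GC box each, that of Atl1 held 2, and that of Nipa1 held 3 together with 1 NRF1 core. The Hspd1 window held 4 GC boxes and 2 overlapping heat shock element cores, which lie in the stretch it shares with the Hspe1 window. The other Hspd1 window, not printed, held 2 GC boxes, 1 CCAAT box, 1 E-box and 1 NRF1 core, and 0 heat shock element cores. The other L1cam window, also not printed, held 2 GC boxes and 1 CCAAT box. None of the 5 printed windows held a TATA box, a CCAAT box or an E-box. A match is a match of letters only.

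The arrays carried the signs of their labels. Bcl11b, Fezf2 and Crym, markers of corticospinal neurons, had a higher group mean in CSMN than in CPN at every stage, and Cux2, a marker of callosal neurons, had a lower one. Replicates correlated at 0.949 or more over all genes in every group but CSMN at P14, whose 2 arrays correlated at 0.904. All 8 genes read higher in replicate 1 than in replicate 2 of CSMN at P14, by 0.11 (L1cam) to 1.24 (Spast). The arrays also differed over all probe sets, with upper quartiles of 8.19 and 7.85 and medians of 6.42 and 6.62. The share of all genes higher in replicate 1 was not counted. Values of that group are therefore given with each array. The E18 groups differ in more than the type. The median of 10 cortical progenitor markers was 6.29 and 6.37 on the CSMN arrays at E18, against 11.1 and 11.4 on the CPN arrays, and that of 9 cell cycle markers was at most 6.76 in CSMN, against at least 9.75 in CPN. Astrocyte markers had medians of 6.88 and 6.96 in CSMN at E18, against 8.50 and 8.61 in CPN. Of these 8 markers 4 were called lower in CSMN, and 4 lay higher with 0 called. At E18 4 of 8 interneuron markers and 3 of 8 microglia markers were also called lower in CSMN. On each of those lists 2 markers lay higher and 0 were called higher. Microglia markers had medians of 6.99 and 8.61 on the CSMN arrays at P14, against 6.95 and 6.96 on those at E18, and all 8 were higher at P14, 1 of them past the test. Their medians in CPN at P14 were 6.71 and 7.27. Astrocyte markers had medians of 7.38 and 7.39 in CSMN at P14, and 6 of 8 were higher than at E18, with 2 called higher and 1 lower. The part of these other cells in any E18 value, or in the change to P14 in CSMN, was not tested. In a sorted population a change in the mix of cells and a change of RNA per cell cannot be told apart.

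The main changes over the 8 genes were few. Atl1, Reep1, Nipa1 and L1cam rose between E18 and P3. Spast and L1cam fell between P3 and P14, while Bscl2 rose. Between the types, Atl1 was higher in CSMN than in CPN, with the widest gap at E18, and the other 7 genes did not pass the test. Tests are those of limma, fitted over all arrays and genes with Benjamini-Hochberg adjustment, and a gene passed at an adjusted p under 0.05. An error after ± is the standard error of that fit unless called an SD.

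**Figure D1:**
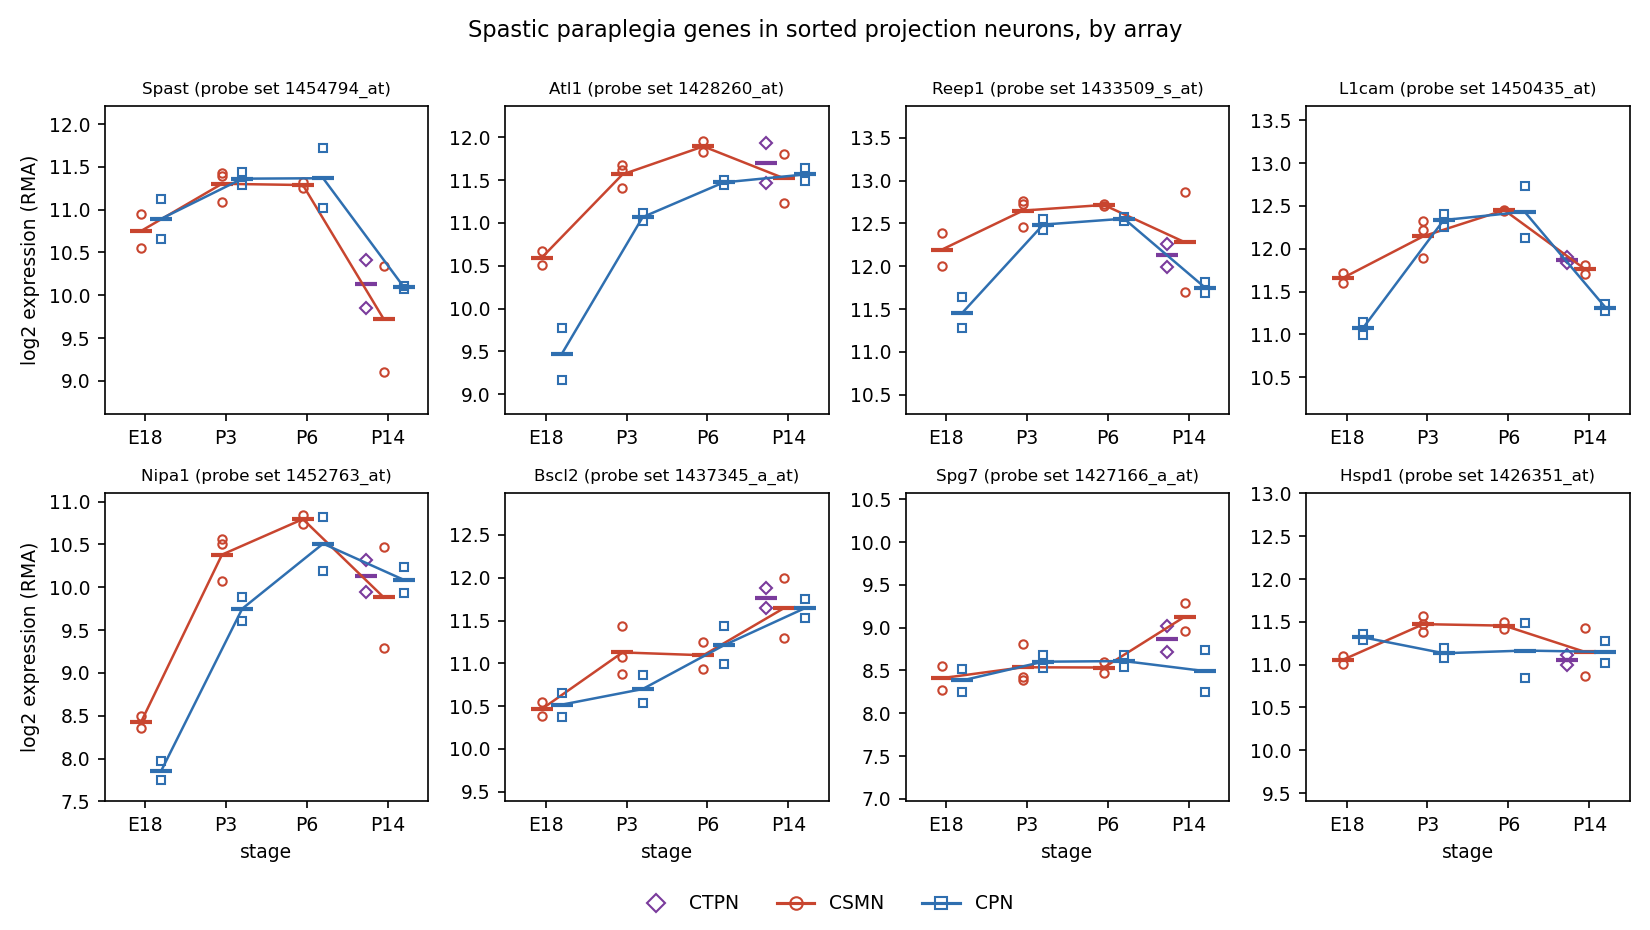
Deposited log2 expression of the 8 measured genes on every array. Each panel is 1 gene, points are single arrays, CTPN stand left of CSMN and CSMN left of CPN where they share a stage, short bars mark group means, and lines join the means of CSMN and of CPN. Spast lies lowest on the P14 arrays, Atl1 and Nipa1 lie lowest on the E18 arrays, and Hspd1 spans 0.72 in all.

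Spast, the microtubule-severing enzyme (probe set 1454794_at, chromosome 17), was highest at P3 and P6 and lowest at P14 in both types. On the CSMN arrays it read 10.55 and 10.95 at E18, 11.43, 11.39 and 11.09 at P3, then 11.25 and 11.32 at P6 and finally 10.34 and 9.10 at P14. On the CPN arrays it read 11.13 and 10.66 at E18, 11.29 and 11.43 at P3, then 11.72 and 11.02 at P6 and finally 10.11 and 10.07 at P14. Both CTPN arrays, at 9.85 and 10.41, lay within the span of the CSMN arrays at P14 or just above it. All 6 arrays at P14 lay below all 13 arrays at earlier stages.

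Averaged over CSMN and CPN, Spast was at 9.91 at P14 against 11.33 at P3, a 2.69-fold fall (log2 difference -1.43 ± 0.23, limma adjusted p = 0.000604). It passed the test with any 1 of the 19 arrays left out, with differences between -1.73 and -1.12. Within the types the difference of P14 from P3 was -1.58 in CSMN (adjusted p = 0.00478) and -1.27 in CPN (adjusted p = 0.0353). Against E18 the fall did not pass, at -1.03 ± 0.35 in CSMN (adjusted p = 0.0587) and -0.80 ± 0.35 in CPN (adjusted p = 0.136). Leaving out 1 array moved the CSMN value between -1.65 without replicate 1 of CSMN at P14 and -0.41 without replicate 2. Either fit left 1 array in that group. The CPN value ran from -1.04 to -0.57. Repeating quantile normalization on the deposited values brought both past the test, at -1.30 in CSMN and -0.90 in CPN, as did cyclic loess, at -1.23 and -0.92. Between the types Spast differed by -0.16 ± 0.17 (CSMN minus CPN, mean of 4 stages), with a 95% interval from -0.53 to 0.20. A second, dimmer probe set (1460400_at, mean 7.51) gave -0.24 ± 0.23 for P14 against P3 (adjusted p = 0.545) and correlated at 0.328 with the first over the 19 arrays, so the fall rests on the brighter one. Of 6 measured relatives and partners in microtubule severing, such as the katanins, limma called 0 at P14 against P3, against 17.8% of all genes. Of the 6, 2 (Fignl1 and Katna1) had an unadjusted p under 0.05.

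Atl1 (probe set 1428260_at, chromosome 12), the GTPase that fuses ER tubules, was the only gene of the 8 to pass between the types. In CSMN it read 10.51 and 10.67 at E18, 11.68, 11.62 and 11.40 at P3, then 11.83 and 11.96 at P6 and finally 11.81 and 11.23 at P14. In CPN it read 9.77 and 9.17 at E18, 11.11 and 11.02 at P3, then 11.50 and 11.44 at P6 and finally 11.64 and 11.49 at P14. The CSMN arrays lay above all CPN arrays of the same stage at E18, P3 and P6, and the types overlapped at P14.

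As the mean of 4 stages Atl1 was at 11.39 in CSMN and 10.89 in CPN, 1.41-fold higher in CSMN (0.50 ± 0.12, adjusted p = 0.015). It was 1 of the 8 genes called in this comparison, where 8.29% of all genes were called either way and 2.96% higher. The median difference of the 8 genes was 0.17, against 0.06 over all genes. Above 0 lay 7 of the 8, and 11053 of all 18194 genes. Atl1 passed with any 1 array left out, with differences between 0.42 and 0.57. Without the E18 arrays in the contrast the difference was 0.29 and did not pass (adjusted p = 0.357).

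At E18 Atl1 was 2.18-fold higher in CSMN than in CPN (1.12 ± 0.24, adjusted p = 0.00693), the only call among the 8 genes at a stage where 12.9% of all genes were called and 3.98% higher. Without replicate 2 of the CPN arrays at E18 the difference was 0.82 and did not pass (adjusted p = 0.076). The difference was 0.50 ± 0.22 at P3, 0.42 ± 0.24 at P6 and -0.046 ± 0.24 at P14, none past the test. At these stages limma called 0 of the 8 genes, with 0.874% of all genes called at P3, 1.07% at P6 and 1.39% at P14. At an unadjusted p under 0.05 the count was 1 at P3 (Atl1), 0 at P6 and 2 at P14 (L1cam and Spg7). The progenitor and cell cycle markers given above were higher in CPN at that age, and their part in the gap was not tested. A second probe set of Atl1 (1452711_at) correlated at 0.965 with the first and gave 0.79 ± 0.13 for the mean of 4 stages (adjusted p = 0.00133) and 1.52 ± 0.27 at E18 (adjusted p = 0.00189).

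With age, Atl1 was higher at P14 than at E18 by 0.93 ± 0.24 in CSMN (adjusted p = 0.0176) and by 2.10 ± 0.24 in CPN (adjusted p = 1.79e-05). The first of these was lost without replicate 1 of the P14 CSMN arrays (0.64, adjusted p = 0.0765) or replicate 1 of the E18 CSMN arrays (0.85, adjusted p = 0.0692). The difference between those changes was -1.17 ± 0.34 and did not pass (adjusted p = 0.0612), and limma called 0 of the 8 genes for it (1, Atl1, at an unadjusted p under 0.05), where 5.17% of all genes were called. That difference passed with quantile normalization repeated (-1.41, adjusted p = 0.00728) and with cyclic loess (-1.28, adjusted p = 0.0152). It also passed with the mean of both probe sets (-1.12, adjusted p = 0.0487). In fits that left 1 array in a group, it was -1.45 without replicate 1 of CSMN at P14 and -1.47 without replicate 1 of CPN at E18. Most of the rise of Atl1 lay before P3, with 1.29 ± 0.16 from E18 to P3 over both types (adjusted p = 0.000139) and 0.23 ± 0.16 from P3 to P14 (adjusted p = 0.405). The call of Atl1 for P14 against E18 in CSMN was also lost with array weights.

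Reep1 (probe set 1433509_s_at, chromosome 6), whose product bends the ER membrane into tubules and ties it to microtubules, was higher at P3 and P6 than at E18. In CSMN it read 12.38 and 12.01 at E18, 12.77, 12.73 and 12.45 at P3, then 12.73 and 12.70 at P6 and finally 12.87 and 11.70 at P14. In CPN it read 11.64 and 11.28 at E18, 12.42 and 12.55 at P3, then 12.58 and 12.53 at P6 and finally 11.69 and 11.81 at P14. At P14 one CSMN array held the highest Reep1 value of all, 12.87, and the other lay beside the CPN arrays.

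From E18 to P3 Reep1 rose 1.67-fold over both types (0.74 ± 0.20, adjusted p = 0.022), and the call held in 14 of 19 fits that each left out 1 array. It was lost without CSMN replicate 2 or CPN replicate 2 at E18, without CSMN replicate 2 at P3 and without either CPN array at P3 (adjusted p up to 0.0953). It was also lost with cyclic loess (0.36, adjusted p = 0.0973) and with the mean of its probe sets (0.31, adjusted p = 0.459). Between P3 and P14 Reep1 differed by -0.55 ± 0.20 (adjusted p = 0.0696). It was -0.84 without replicate 1 of CSMN at P14 and -0.26 without replicate 2, each fit leaving 1 array in that group. With quantile normalization repeated it was -0.48 and passed (adjusted p = 0.0404). Between the types Reep1 was higher in CSMN by 0.40 ± 0.14 as the mean of 4 stages (adjusted p = 0.111) and by 0.74 ± 0.29 at E18 (adjusted p = 0.108), neither past the test. Both passed when quantile normalization was repeated, at 0.44 (adjusted p = 0.0183) and 0.93 (adjusted p = 0.0125), with cyclic loess, at 0.44 (adjusted p = 0.00776) and 1.04 (adjusted p = 0.00215), and with the mean of its probe sets, at 0.68 (adjusted p = 0.0401) and 1.41 (adjusted p = 0.0308). Without replicate 2 of CSMN at P14 they were 0.54 and 0.74, and without replicate 1 the mean of 4 stages was 0.25. At P14 the type difference was 0.53 ± 0.29 (adjusted p = 0.398). It was 1.11 without replicate 2 of CSMN at P14 and -0.06 without replicate 1. A dim second probe set (1449662_at, mean 6.97) correlated at 0.469 with the first, with 2.09 ± 0.58 between the types at E18 (adjusted p = 0.028) and -0.12 ± 0.39 from E18 to P3.

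The relatives of these ER proteins did not share one course. Of 10 measured partners and relatives of atlastin and REEP, 1 passed between the types in the mean of 4 stages. Over all genes the share called there was 8.29%. It was Reep3, which clears the ER from mitotic chromosomes, and it was lower in CSMN, by -1.23 ± 0.17 (adjusted p = 0.000365). Reep3 read 8.12 and 8.71 in CSMN at E18, against 11.03 and 11.49 in CPN, beside the progenitor difference given above. At E18 Reep4, a close relative of Reep3, was also lower in CSMN (-0.75 ± 0.22, adjusted p = 0.0385), where 12.9% of all genes were called. Between P3 and P14 Rtn3, a tubule-shaping reticulon, rose by 0.37 ± 0.12 (adjusted p = 0.0471). Reep3 fell by 2.04 ± 0.24 (adjusted p = 3.79e-05) and Atl3, an atlastin found mainly outside neurons, fell by 0.59 ± 0.16 (adjusted p = 0.0166). Over all genes 7.98% rose and 9.82% fell between these ages. From E18 to P3 Reep3 alone passed (-1.05 ± 0.24, adjusted p = 0.0101), while Atl3 differed by 0.36 ± 0.16. In that step 9.16% of all genes rose and 3.91% fell. Reep2, the close neuronal relative of Reep1, differed by 0.14 ± 0.34 between the types, by 0.62 ± 0.46 from P3 to P14 and by 0.61 ± 0.46 from E18 to P3. Atl2 is not analysed here.

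L1cam (probe set 1450435_at, chromosome X) was highest at P3 and P6, when it stood above its E18 and P14 levels. In CSMN it read 11.71 and 11.60 at E18, 12.23, 12.32 and 11.89 at P3, then 12.45 and 12.46 at P6 and finally 11.82 and 11.71 at P14. In CPN it read 10.995 and 11.14 at E18, 12.41 and 12.26 at P3, then 12.13 and 12.74 at P6 and finally 11.27 and 11.36 at P14. The CTPN arrays read 11.83 and 11.90, above both CPN arrays of the same age. The arrays at P3 and P6 all lay above those at E18, and within each type above those at P14.

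L1cam rose 1.84-fold from E18 to P3 (0.88 ± 0.14, adjusted p = 0.000881) and fell 1.63-fold from P3 to P14 (-0.70 ± 0.14, adjusted p = 0.00271). Both calls held with any 1 array left out. The first was lost with cyclic loess (0.51, adjusted p = 0.08), and both were lost with the mean of its probe sets, at 0.39 (adjusted p = 0.0688) and -0.33 (adjusted p = 0.102). Within CPN the fall from P3 to P14 was -1.02 (adjusted p = 0.00648). The types differed by 0.59 ± 0.21 at E18 (adjusted p = 0.0776) and by 0.45 ± 0.21 at P14 (adjusted p = 0.349), and all CSMN arrays lay above all CPN arrays at both ages. The E18 difference passed with quantile normalization repeated (0.83, adjusted p = 0.0243) and with cyclic loess (0.88, adjusted p = 0.0351). It also passed with the mean of the L1cam probe sets (0.72, adjusted p = 0.0267). At P3 and P6 the types differed by -0.19 ± 0.19 and 0.02 ± 0.21. A second probe set (1421958_at), whose mean of 6.73 lies close to the array medians of 6.42 to 6.62, showed neither step, with -0.10 ± 0.23 from E18 to P3 and 0.035 ± 0.23 from P3 to P14.

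The list of L1 relatives and ligands holds the adhesion molecules that L1CAM resembles or binds. Chl1, the closest relative of L1CAM, rose from E18 to P3 (0.62 ± 0.16, adjusted p = 0.0184) and fell from P3 to P14 (-1.64 ± 0.16, adjusted p = 6.7e-06). Of the 8 measured, 3 rose and 0 fell from E18 to P3, where 9.16% of all genes rose and 3.91% fell. Beside Chl1 these were Cntn1 at 1.73 ± 0.12 (adjusted p = 1.26e-06) and the anchor protein Ank2 at 0.95 ± 0.21 (adjusted p = 0.00703). In the later step to P14 0 rose and 3 fell, where 7.98% of all genes rose and 9.82% fell. Beside Chl1 these were Ncam1 at -1.19 ± 0.20 (adjusted p = 0.000728) and Ank2 at -0.77 ± 0.21 (adjusted p = 0.0176). Nrcam differed by 0.49 ± 0.18 in the first step and 0.07 ± 0.18 in the second, and Nfasc by 0.40 ± 0.20 and -0.26 ± 0.20, none past the test. In the mean of 4 stages between the types Cntn1 alone passed, higher in CSMN by 0.51 ± 0.09 (adjusted p = 0.00175), while Chl1 differed by 0.23 ± 0.11, Nrcam by 0.15 ± 0.13 and Nfasc by -0.22 ± 0.15. At E18 Cntn1 was higher in CSMN (0.79 ± 0.18, adjusted p = 0.0116) and Cntn2 lower (-0.84 ± 0.24, adjusted p = 0.0348). Over all genes 8.29% were called in the mean of 4 stages and 12.9% at E18.

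Nipa1 (probe set 1452763_at, chromosome 7) had the widest span of group means of the 8 genes, 2.94 log2 units. In CSMN it read 8.36 and 8.50 at E18, 10.50, 10.57 and 10.07 at P3, then 10.74 and 10.85 at P6 and finally 10.47 and 9.29 at P14. In CPN it read 7.97 and 7.75 at E18, 9.61 and 9.89 at P3, then 10.83 and 10.19 at P6 and finally 9.93 and 10.24 at P14. All 4 arrays at E18 lay below every later array.

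From E18 to P3 Nipa1 rose 3.79-fold over both types (1.92 ± 0.22, adjusted p = 6.58e-05). At P14 it stayed above E18, by 1.45 ± 0.33 in CSMN (adjusted p = 0.00767) and 2.23 ± 0.33 in CPN (adjusted p = 0.00017). The call in CSMN was lost with array weights and with the mean of its probe sets. The later step, to P14, measured -0.08 ± 0.22. Between the types Nipa1 was higher in CSMN by 0.32 ± 0.16 (adjusted p = 0.26), with no overlap at E18 and P3. Without replicate 2 of CSMN at P14, which left 1 array in that group, that difference was 0.47. Without replicate 1 it was 0.17. At E18 it was 0.57 ± 0.33 (adjusted p = 0.26), and passed with quantile normalization repeated (0.84, adjusted p = 0.0225) and with cyclic loess (0.79, adjusted p = 0.0351). At P3 it was 0.63 ± 0.30 (adjusted p = 0.648), and passed with array weights (0.75, adjusted p = 0.00136).

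A second probe set of Nipa1 (1434864_at) was about as bright, with a mean of 9.73 against 9.79, and agreed in part. It also rose from E18 to P3, by 0.74 ± 0.21 (adjusted p = 0.0282). It fell from P3 to P14 by 0.74 ± 0.21 (adjusted p = 0.0215), where the brighter one measured -0.08 ± 0.22. For P14 against E18 in CSMN it gave -0.72 ± 0.31 (adjusted p = 0.136), opposite in sign to the brighter one, and in CPN 0.72 ± 0.31 (adjusted p = 0.132). At E18 it was higher in CSMN by 1.02 ± 0.31 (adjusted p = 0.0407). The rise to P3 is therefore read by both probe sets, and the level of Nipa1 at P14 relative to E18 is not.

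Of the 6 measured genes on the list of NIPA relatives and BMP partners, 1 rose from E18 to P3, the BMP receptor Bmpr2 (0.55 ± 0.14, adjusted p = 0.0166). Of all genes 9.16% rose in that step. From P3 to P14 Bmpr2 fell by 0.44 ± 0.14 (adjusted p = 0.0425), and Nipal3, a NIPA-like gene, rose by 2.02 ± 0.27 (adjusted p = 0.000101). Over all genes 9.82% fell and 7.98% rose in this later step. Nipa2, the neighbour and close relative of Nipa1, differed by 0.52 ± 0.19 in the first step (adjusted p = 0.0852), by 0.12 ± 0.19 in the second and by -0.10 ± 0.14 between the types.

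Bscl2, the seipin gene (probe set 1437345_a_at, chromosome 19), was higher at P14 than at E18 in both types. In CSMN it read 10.38 and 10.55 at E18, 11.43, 10.88 and 11.07 at P3, then 11.25 and 10.94 at P6 and finally 11.999 and 11.30 at P14. In CPN it read 10.66 and 10.38 at E18, 10.87 and 10.53 at P3, then 10.99 and 11.43 at P6 and finally 11.75 and 11.53 at P14. The CTPN arrays read 11.88 and 11.65. All P14 arrays lay above all E18 arrays, while P3 and P6 overlapped with each other.

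At P14 Bscl2 was 2.27-fold above E18 in CSMN (1.18 ± 0.26, adjusted p = 0.00764) and 2.18-fold above it in CPN (1.13 ± 0.26, adjusted p = 0.00681). The difference between the types in that change was 0.06 ± 0.37, with an interval from -0.74 to 0.86. From P3 to P14 it rose 1.66-fold (0.73 ± 0.18, adjusted p = 0.0101), and the call was lost without CPN replicate 2 at P3 (0.65, adjusted p = 0.0588) or CPN replicate 1 at P14 (0.68, adjusted p = 0.051). In CPN alone the change from E18 was lost without replicate 2 at E18 (0.99, adjusted p = 0.068) or replicate 1 at P14 (1.02, adjusted p = 0.069). Its second probe set (1420632_a_at) correlated at 0.857 with the first and passed for P3 to P14 (0.73 ± 0.19, adjusted p = 0.0146) and in CPN (1.09 ± 0.28, adjusted p = 0.0126), but not in CSMN (0.60 ± 0.28, adjusted p = 0.177). On the first probe set the call in CSMN was lost with array weights.

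Among 8 measured seipin partners and lipid droplet genes, Tmem159, whose product binds seipin at the droplet, was higher in CSMN than in CPN by 1.36 ± 0.12 (adjusted p = 5.83e-06), the only call of the list between the types in the mean of 4 stages. Over all genes 8.29% were called in that mean. At E18 Plin3, a droplet coat gene, was lower in CSMN (-1.503 ± 0.36, adjusted p = 0.0139), where 12.9% of all genes were called. Between P3 and P14 3 genes rose, Dgat2, which makes triglycerides (1.40 ± 0.18, adjusted p = 9.47e-05), Tmem159 (0.79 ± 0.16, adjusted p = 0.00355) and Lpin2 (0.72 ± 0.23, adjusted p = 0.0401). The droplet coat gene Plin2 fell (-1.68 ± 0.18, adjusted p = 1.61e-05). Of all genes 7.98% rose and 9.82% fell in that step. From E18 to P3 Dgat2 (1.15 ± 0.18, adjusted p = 0.000843) and Tmem159 (0.53 ± 0.16, adjusted p = 0.0451) rose, and Plin3 fell (-0.99 ± 0.24, adjusted p = 0.015). In this earlier step 9.16% of all genes rose and 3.91% fell.

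The mitochondrial genes moved least. Hspd1 (probe set 1426351_at, chromosome 1) passed in 0 of the 12 comparisons, and in 0 at an unadjusted p under 0.05, and its group means spanned 0.42. In CSMN it read 11.10 and 11.01 at E18, 11.56, 11.48 and 11.38 at P3, then 11.50 and 11.41 at P6 and finally 11.43 and 10.86 at P14. In CPN it read 11.36 and 11.28 at E18, 11.19 and 11.07 at P3, then 11.49 and 10.84 at P6 and finally 11.27 and 11.02 at P14. The difference between the types was 0.09 ± 0.11, with an interval from -0.15 to 0.33. With array weights the difference at P3 passed, at 0.34 (adjusted p = 0.032). From E18 to P3 Hspd1 differed by 0.12 ± 0.15, and from P3 to P14 by -0.15 ± 0.15. Hspe1, the co-chaperonin gene that shares its promoter, differed by -0.07 ± 0.12 between the types, by 0.09 ± 0.16 in the first step and by -0.29 ± 0.16 in the second.

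Spg7 (probe set 1427166_a_at, chromosome 8) stayed between 8.25 and 8.81 on every array before P14. At P14 it read 9.02 and 8.71 in CTPN, 9.29 and 8.96 in CSMN, and 8.74 and 8.25 in CPN. The CSMN arrays at P14 lay above all CPN arrays and all earlier CSMN arrays. In CSMN it was 1.65-fold higher at P14 than at E18 (0.72 ± 0.22, adjusted p = 0.0437), a call that held in 9 of 19 fits with 1 array left out (adjusted p up to 0.205 without CSMN replicate 2 at E18). The call was also lost with array weights (adjusted p = 0.801) and with the mean of its probe sets (0.40, adjusted p = 0.109). Of the markers given above, all 8 of microglia and 6 of 8 of astrocytes also lay higher in CSMN at P14 than at E18. Past the test were 1 microglia marker, higher, and 3 astrocyte markers, 2 higher and 1 lower. The part of these cells in the change of Spg7 was not tested. In CPN the change was 0.11 ± 0.22, and the difference between the types in that change did not pass (0.61 ± 0.32, adjusted p = 0.319). At P14 the CSMN level exceeded that of CPN by 0.64 ± 0.22 (adjusted p = 0.242), and with cyclic loess by 0.80, which passed (adjusted p = 0.0262). A dim second probe set (1441585_at, mean 6.06) gave 0.08 ± 0.21 for the change in CSMN. Of 10 measured genes of mitochondrial protein quality, Afg3l2, whose product forms the protease with paraplegin, rose from E18 to P3 (0.75 ± 0.20, adjusted p = 0.0216). The chaperone gene Trap1 rose from P3 to P14 (0.73 ± 0.20, adjusted p = 0.0197). Over all genes 9.16% rose in the earlier of these steps and 7.98% in the later. Afg3l2 differed by 0.35 ± 0.20 from P3 to P14 and by 0.07 ± 0.14 between the types. Its relative Afg3l1 differed by -0.54 ± 0.19 from E18 to P3 (adjusted p = 0.0768), by -0.16 ± 0.19 from P3 to P14 and by 0.02 ± 0.14 between the types.

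**Figure D2:**
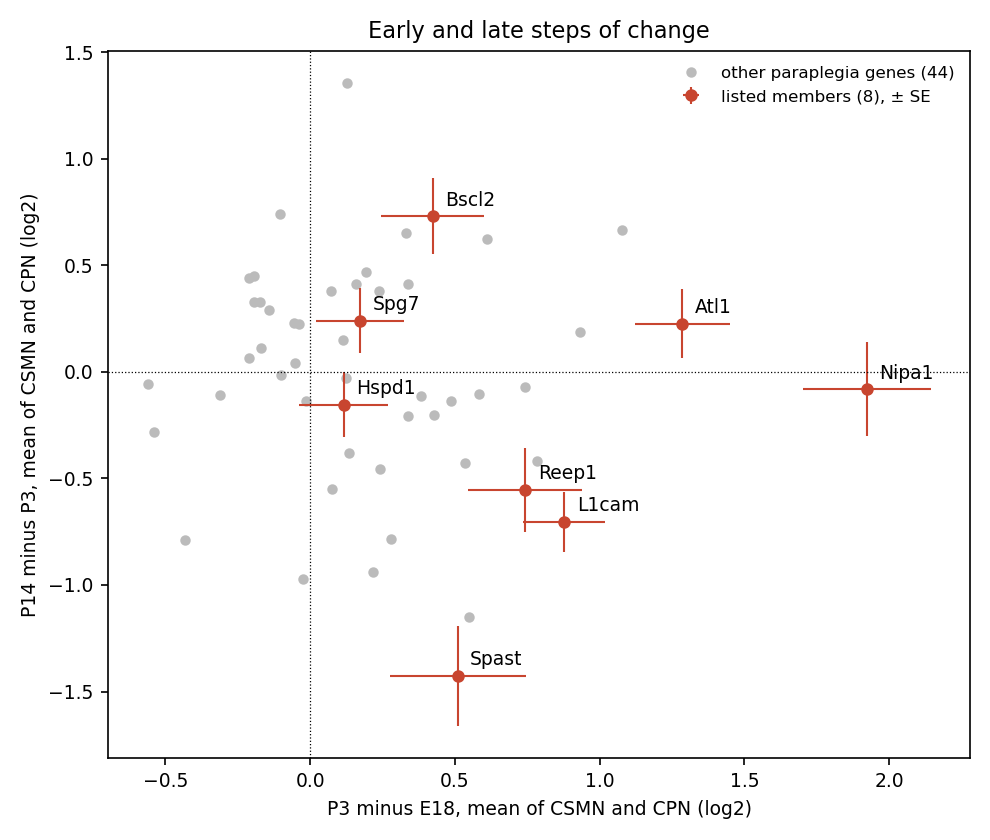
Change from P3 to P14 (vertical axis) against change from E18 to P3 (horizontal axis), in log2 units and as means of CSMN and CPN, for the 8 genes (named points with standard errors) and 44 other paraplegia genes (small points). The steps share the P3 arrays, so the axes are not independent. L1cam lies to the lower right at 0.88 and -0.70, Spast lies lowest of the 8 at -1.43, and Nipa1 lies farthest right at 1.92.

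Counted over the 8 genes, 4 rose and 0 fell from E18 to P3, where 13.1% of all genes were called either way, 9.16% higher and 3.91% lower. All 8 differences lay above 0, with a median of 0.63 against -0.05 over all genes. Of all 18194 genes, 8056 lay above 0. Between P3 and P14 1 rose and 2 fell, where 17.8% of all genes were called, 7.98% higher and 9.82% lower, and the median was -0.12 against 0.06. In CSMN 4 rose from E18 to P14 (Atl1, Nipa1, Bscl2 and Spg7), where 15.1% of all genes were called and 9.27% higher, and in CPN 3 rose (Atl1, Nipa1 and Bscl2), where 19.1% were called and 10.2% higher. The medians of these changes were 0.41 against -0.00 over all genes in CSMN and 0.27 against 0.03 in CPN. Every one of these counts but the second rests on E18 arrays. The CPN arrays at E18, which carried the progenitor markers, enter the count from E18 to P3 and the count in CPN. The contrast in CSMN holds no CPN array.

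**Figure D3:**
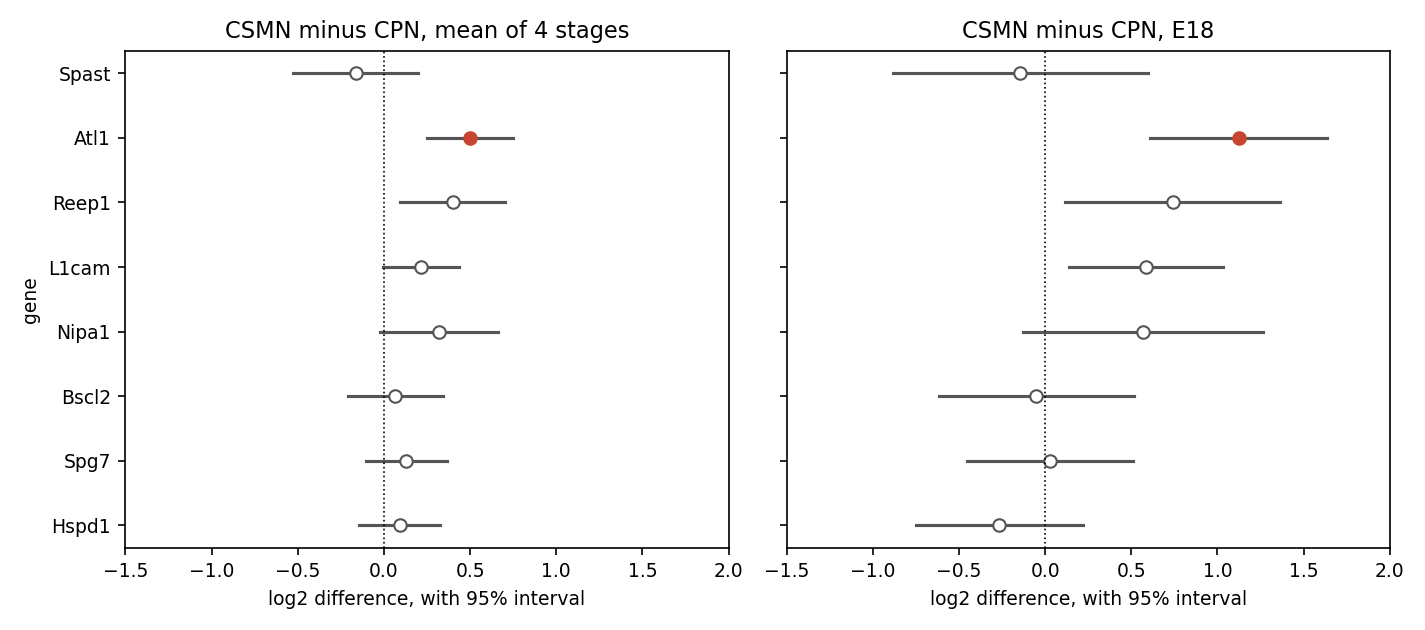
Difference between CSMN and CPN (CSMN minus CPN, log2, horizontal axes) for each of the 8 genes, as the mean of 4 stages (left panel) and at E18 (right panel), with points for the limma estimates and lines for their 95% intervals, where filled points passed the test over all genes. Atl1 holds the only filled point in either panel, at 0.50 and 1.12, and the intervals of Reep1 in both panels and of L1cam at E18 also lie above 0 although neither gene passed.

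Stage by stage, no gene of the 8 had its CSMN arrays wholly above or wholly below its CPN arrays at all 4 stages, where 0.967% of all genes were wholly higher and 1.26% wholly lower. Atl1 came nearest, with 3 stages. Reep1 was wholly higher in CSMN at E18 and P6, Nipa1 at E18 and P3, and L1cam at E18 and P14. Bscl2 was wholly higher at P3 and Spg7 at P14. Hspd1 was wholly lower in CSMN at E18 and wholly higher at P3. The share of all genes so separated at a single stage was not counted, so these separations cannot be set against it. At P14, Spast and Nipa1 lay below CPN by -0.37 ± 0.35 and -0.20 ± 0.33. Without replicate 1 of CSMN at P14, which left 1 array in that group, these differences were -0.99 and -0.79. Without replicate 2 they were 0.24 and 0.39.

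The neurons projecting to the midbrain were set beside both other types at P14. Limma called 0 of the 8 genes for CTPN against CSMN, where 0.192% of all genes were called, and 0 for CTPN against CPN, where 1.06% were. At an unadjusted p under 0.05 the counts were 0 and 1 (L1cam). L1cam showed the largest gap to CPN, with no overlap, at 0.55 ± 0.21 (adjusted p = 0.457) and an interval from 0.11 to 0.998. Reep1 was next, at 0.38 ± 0.29, also without overlap. For CTPN against CSMN the largest gap was that of Spast, at 0.41 ± 0.35 (adjusted p = 0.703). Without replicate 1 of CSMN at P14, which left 1 array in that group, it was 1.03, and without replicate 2 it was -0.21. The gap of Nipa1 was 0.25 ± 0.33 with both arrays, 0.84 without replicate 1 and -0.34 without replicate 2. Atl1 differed from CSMN by 0.18 ± 0.24 and Hspd1 by -0.10 ± 0.23. The comparisons with CTPN share the CTPN arrays, and those at P14 share the CSMN or CPN arrays of that age.

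The 9 groups were also ordered by mean level, gene by gene. Of 8 neighbouring pairs in each gene's order, the arrays overlapped in 5 for Atl1 and L1cam, in 6 for Spast, Reep1, Nipa1 and Bscl2, and in 7 for Spg7 and Hspd1. Neighbours were compared after sorting by mean, and the same count over all genes was not made. How these overlaps compare with those of other genes is therefore not known. For Spast the separate pairs were CSMN at P6 above CPN at E18, and CSMN at E18 above CTPN at P14. For Atl1 they were the last steps of the order, CPN at P6 above CPN at P3, that group above CSMN at E18, and CSMN at E18 above CPN at E18. Bscl2 had its P14 groups on top, in the order CTPN, CSMN and CPN, which overlapped with each other. CPN at P6, the next group down, lay below the CTPN and CPN arrays of P14 and overlapped with CSMN at P14. For Nipa1 the only separations were CPN at P3 above CSMN at E18 and CSMN at E18 above CPN at E18. The median over genes of the SD within groups was 0.28, and that of the 8 genes ran from 0.18 for L1cam to 0.38 for Spast.

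**Figure D4:**
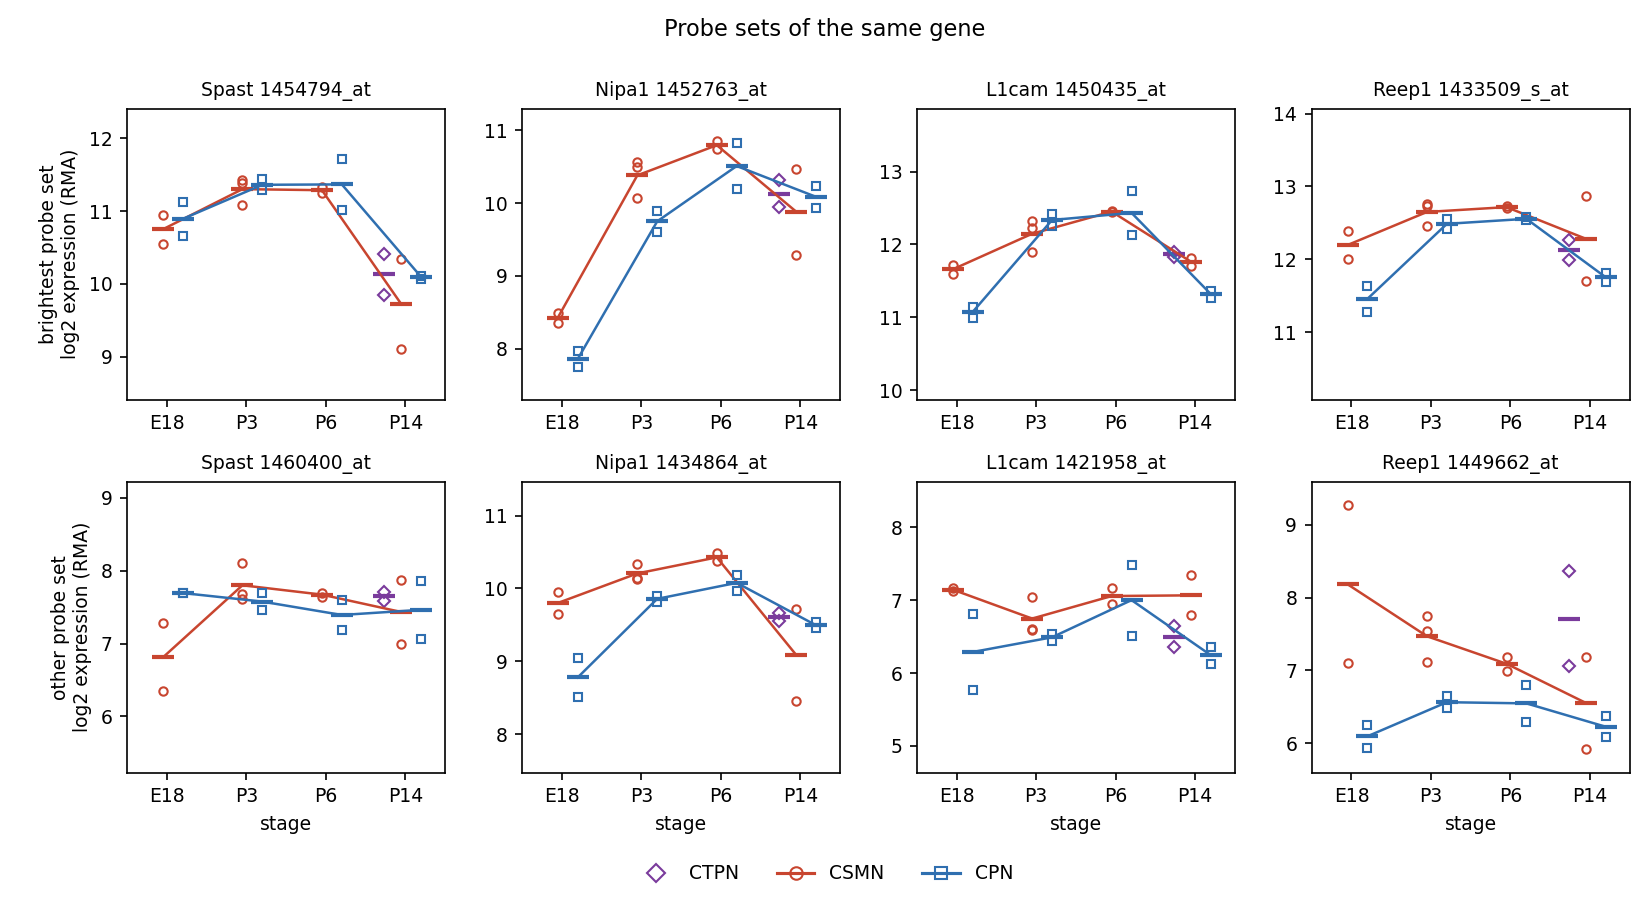
Deposited log2 expression (vertical axes) by stage (horizontal axes) on the brightest probe set (top row) and on the other probe set (bottom row) of Spast, Nipa1, L1cam and Reep1, with points for single arrays, short bars for group means and lines joining the means of CSMN and of CPN. The scales differ in position between panels but each spans the same range. The drop of Spast at P14 is seen on the brightest probe set only, and the E18 values of Nipa1 lie far below the later ones on the brightest probe set but not on the other in CSMN.

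Across the 19 arrays, which share groups, the 8 genes fell into unlike courses. Atl1 and Nipa1 had the closest course of any pair (Pearson r = 0.93), followed by Reep1 and L1cam (r = 0.821), and Spast and Bscl2 the most opposed (r = -0.466). Hspd1 and Bscl2 were unrelated, at -0.0379. Over all 18194 genes, the most similar to Spast were Zbtb41 (r = 0.978) and Znrf2 (r = 0.966), and to Atl1 Rgs7 (r = 0.973) and Sphkap (r = 0.964). For Nipa1 they were Klhl2 (r = 0.96) and Fam169a (r = 0.957), for Reep1 Cldn23 (r = 0.941) and Trpm3 (r = 0.934), and for Bscl2 Plbd2 (r = 0.94) and Vgf (r = 0.939). L1cam was followed by Slc7a5 (r = 0.892) and Arhgap23 (r = 0.872), Hspd1 by Sae1 (r = 0.926) and Ncl (r = 0.909), and Spg7 less closely by Sh2d3c (r = 0.831) and Tpst2 (r = 0.827). These correlations describe the course over stages and types and carry no test.

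Other genes mutated in the same disease showed no common direction either. Of 47 listed, 44 were measured, and in the mean of 4 stages 2 were higher and 2 lower in CSMN, with a median difference of 0.00. In that comparison 8.29% of all genes were called, 2.96% higher. Cyp7b1, an enzyme of oxysterol breakdown, was higher in CSMN by 1.13 ± 0.19 (adjusted p = 0.00137), including at P3 (1.65 ± 0.35, adjusted p = 0.0427). Of 12 lipid metabolism genes it was the only call. Kif1c was lower in CSMN by -0.67 ± 0.14 (adjusted p = 0.00683), the only call of 3 kinesin motors, and its CSMN group means, 6.27 to 6.48, lay close to the array medians. Kif1a and Kif5a differed between the types by -0.04 ± 0.11 and 0.29 ± 0.13. Of 7 genes of mitochondria and metabolism, Nt5c2, a nucleotidase, was higher in CSMN (0.45 ± 0.12, adjusted p = 0.0267), and Ampd2, an AMP deaminase, lower (-0.72 ± 0.15, adjusted p = 0.00777). Of 15 endosome and lysosome genes and 6 ER membrane genes, limma called 0 between the types in the mean of 4 stages, and 1 of each list (Zfyve26 and Tfg) had an unadjusted p under 0.05.

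From E18 to P3, 3 of the 44 rose and 0 fell, where 9.16% of all genes rose and 3.91% fell. Kif5a, a heavy chain of the kinesin that carries cargo down the axon, rose by 0.93 ± 0.18 (adjusted p = 0.00349), while Kif1a differed by -0.14 ± 0.16. The ganglioside enzyme gene B4galnt1 rose by 1.08 ± 0.24 (adjusted p = 0.00777) and Selenoi by 0.78 ± 0.23 (adjusted p = 0.0367). From P3 to P14, 3 of the 44 rose and 5 fell, close to the 7.98% and 9.82% of all genes. Cpt1c, a neuronal carnitine palmitoyltransferase relative of the ER, rose by 1.36 ± 0.31 (adjusted p = 0.00686), and Erlin2, an ER membrane scaffold, fell by 1.15 ± 0.20 (adjusted p = 0.000935). The adaptor subunit Ap4s1 rose (0.65 ± 0.21, adjusted p = 0.045), and Ap4e1 of the same complex fell (-0.94 ± 0.29, adjusted p = 0.035), as did Spg21 (-0.97 ± 0.24, adjusted p = 0.0099). In CSMN Ap4e1 read 5.66 and 7.62 on the P14 arrays, against 7.60 to 7.64 at P3. In CPN it read 6.67 and 7.19 at P14, against 7.76 and 7.92 at P3. Nt5c2 (-0.78 ± 0.16, adjusted p = 0.00349) and Mars1 (-0.55 ± 0.18, adjusted p = 0.0491) fell, and 1600014C10Rik rose (0.44 ± 0.15, adjusted p = 0.0494). Kif5a and Kif1a differed in this step by 0.19 ± 0.18 and 0.29 ± 0.16.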

How the data were processed

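The authors deposited log2 values, 1 per probe set and array, computed by RMA per the submitters' processing notes. A version of the software is not given in the sources used here. Per the labels' protocols, RNA was purified with a StrataPrep kit and amplified in 2 rounds of in vitro transcription. Amplified material limits what a small difference can show, and arrays have no read depth, so the number of arrays sets the precision.

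Among 45101 probe sets there were 64 controls, and 34958 carried 1 gene symbol, 932 several and 9211 none. For 34754 of those with 1 symbol the gene identifier was found in RefSeq, and 0 symbols changed. The probe set with the highest mean over the 19 arrays stood for a gene, which gave 18194 genes. Groups were taken from the sample labels. In limma, 9 group means were estimated from all arrays at once, with 10 residual degrees of freedom and 4.46 prior ones, so the groups share one estimate of the spread. Contrasts were tested with moderated two-sided tests, adjusted by Benjamini-Hochberg over all genes and called under 0.05. The fit was checked on simulated data, with independent normal noise at each gene's own SD within groups and 100 genes changed at each size. The simulation held no differences of whole arrays, such as that between the CSMN arrays at P14. Its rates may therefore not hold for these arrays. A log2 change of 1 was called in 87% of changed genes for the mean of 4 stages and 73% for P14 against P3. For P14 against E18 in CPN it was called in 31%, and a change of 2 in 88%. The shares of false calls were 3.61%, 2.27% and 6.3% in that order.

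The 9 genes and all lists were chosen with earlier results of these data known, and E18 against P3 was added as a comparison after values had been seen. All 9 genes, Hspe1, Afg3l2, Afg3l1, Atl2, Atl3, Reep2, Nipa2, Chl1, Nrcam, Nfasc, Kif5a and Kif1a were always named. Each other list gave up to 3 called genes per direction, and each gene the 2 most correlated genes. Fignl1, Katna1, Zfyve26 and Tfg were named after their values were seen.

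Alternatives were quantile and cyclic loess normalization of the deposited values, only the brighter genes (above the median), the mean over a gene's probe sets, no probe sets marked _x_, _s_ or _a_, array weights, a replicate block, contrasts without E18, each further probe set, and leaving out each array. R 4.3.3 with limma 3.58.1 and Python 3.11.15 with matplotlib 3.10.9 were used.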

Additional observations from a re-analysis of the deposited data

How the results depend on the processing

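Most settings kept the direction and call of the 8 genes. Of the 12 comparisons of each gene under every setting, 2369 values kept sign and call, 44 lost a call, 56 gained one and 8 changed sign with a call on one side. A further 123 values changed sign and were uncalled on both sides. The cause of these changes was not tested. Repeating quantile normalization called 2 of the 8 genes between the types over 4 stages, 4 at E18 and 1 for the difference between the types in change with age. Cyclic loess called 2, 4 and 1 in the same comparisons, 1 at P14 and 2 for P3 against E18. The mean of all probe sets called 3, 3, 1, 2 for P14 against E18 in CSMN and 2 for P3 against E18. Leaving out probe sets marked _x_, _s_ or _a_ called 2 at E18 and 2 for P14 against E18 in CSMN. Array weights called 3 at P3 and 0 for P14 against E18 in CSMN. Without E18 the mean of stages called 0, and P14 against P3 in CSMN called 1.

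Over all genes, array weights called 991 between the types at E18, 3175 at P3, 875 at P6 and 2 at P14. They called 258 for P14 against E18 in CSMN, 184 for the difference between the types in that change, 0 for CTPN against CSMN and 588 for CTPN against CPN (main counts 2351, 159, 195, 253, 2751, 941, 35 and 193). Genes above the median brightness gave 1330 at E18, 146 at P14, 342 for the difference in change, 19 for CTPN against CSMN and 119 for CTPN against CPN. Without E18, the mean of stages called 747 genes in place of 1509, P14 against P3 in CPN 1481 in place of 3484, and the difference in change 21. Cyclic loess called 262 at P3, and quantile normalization 1454 for the difference in change. The share of calls that were higher moved with scaling, to 45.8% at E18 with quantile normalization in place of 30.8%, to 46.2% at P3 and 44.2% at P14 with cyclic loess in place of 57.2% and 32%. With quantile normalization it was 53.6% for the difference in change in place of 68.1% and 58.8% for P3 against E18 in place of 70.1%.

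Sign changes that involved a call were few. With P3 in place of E18, the change to P14 was -0.046 for Atl1 and -0.50 for Nipa1 in CSMN and -1.02 for L1cam in CPN, which passed only in this form. On other probe sets, Reep1 gave -0.12 for P3 against E18 (also when marked probe sets were left out), L1cam -0.10 for that step and 0.035 for P14 against P3, and Nipa1 -0.72 for P14 against E18 in CSMN.

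Leaving out 1 array at a time, the 8 genes gave 1 to 3 calls for the mean of 4 stages, 0 to 3 at E18, 0 at P3 and P6 and 0 to 2 at P14. They gave 3 to 5 calls for P14 against E18 in CSMN, 2 to 4 in CPN, 0 to 2 for the difference in change, 2 to 4 for P14 against P3 and 3 to 5 for P3 against E18. For CTPN they gave 0 to 2 calls against CSMN and 0 against CPN. Over all genes the counts ran from 1038 to 5261 for the mean of 4 stages, 1120 to 4253 at E18, 29 to 341 at P3, 53 to 383 at P6 and 40 to 6256 at P14. They ran from 1770 to 4967 for P14 against E18 in CSMN, 2137 to 4582 in CPN, 454 to 3598 for the difference in change, 2182 to 7157 for P14 against P3 and 1262 to 4173 for P3 against E18. With CTPN they ran from 12 to 5143 against CSMN and 51 to 395 against CPN. Over all genes, every highest count was the one without replicate 1 of CSMN at P14, which left that group with 1 array assumed to vary like the others.

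Whether the replicate numbers pair the arrays was not settled. Deviations of same-numbered arrays from their group means correlated at -0.308 to 0.593, with 34 of 72 values above 0.1. In groups of 2 arrays the deviations mirror each other, so most of the 72 values repeat another. Between CSMN and CPN of the same stage they were 0.199 at E18, 0.0978 and 0.208 at P3, -0.095 at P6 and 0.211 at P14. With the replicate number as a block, Reep1 passed for P14 against P3 (-0.60, adjusted p = 0.0457), and no other call of the 8 genes changed. With 2 arrays in most groups, a gene that did not pass may still differ.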
